A study of Drosophila melanogaster with 35 samples.

Results

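The 6 libraries described here are the driver controls of an RNA-seq series of 35 libraries from adult Drosophila heads at 1 week of age, 3 from GMR control flies and 3 from elav control flies. The GMR control flies had the genotype Repo-LexA/+;GMR-gal4/+ and the elav control flies the genotype elav-gal4,Repo-LexA/Y. Both therefore carried a GAL4 driver and a glial LexA driver, and neither carried Aβ42, tau, TREM2 or TYROBP. The elav-GAL4 insertion lies on the X chromosome, and the label gives its carriers a Y chromosome. That label writes Repo-LexA beside elav-gal4, over the Y chromosome. The GMR control label writes Repo-LexA over + and names no Y chromosome. The study's methods state that RNA-seq used male flies. Heads of many flies were pooled for each genotype, and the labels do not say whether the 3 libraries of a genotype came from separate cultures, so that p-values measure the spread between libraries, which may be technical. The other genotypes of the series carried TREM2WT/TYROBP or TREM2R47H/TYROBP in glia, Aβ42 or tau, or both kinds of transgene. Of these, the GMR and elav heads with TREM2WT/TYROBP and those with TREM2R47H/TYROBP alone, 6 libraries each, were used as further pairs that differ in driver and share no library with the controls. The comparison asks how far heads with the 2 drivers differed before any disease transgene or TREM2/TYROBP was added.

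GMR-GAL4 is driven by binding sites for Glass, a transcription factor of the developing retina, and is active in photoreceptors and other eye cells. elav-GAL4 is inserted at the locus of elav, an RNA-binding protein of postmitotic neurons, and is active throughout the nervous system. In Drosophila the sexes differ in dosage compensation: in males the MSL complex, which contains the non-coding RNAs roX1 and roX2, raises transcription of the single X chromosome, while in females Sxl protein blocks msl-2 and the complex does not form. The fat body of females, which is also present in the head, makes the yolk proteins Yp1, Yp2 and Yp3 for export to the ovary.

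All values are log2 CPM (read counts scaled to library size), normalized and adjusted for RNA integrity number (RIN) by the authors. RIN was 6.8 to 6.9 in GMR control and 6.4 to 6.8 in elav control libraries. Levels below are given at equal RIN, with the slope on RIN within genotypes taken out, so that the difference of the means is the log2 fold change, GMR control minus elav control. Genes were called with limma at an adjusted p (Benjamini-Hochberg) under 0.05 and a fold change above 1.2. Levels near -6 or below stand for few or no reads, and fold changes against them are not firm.

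Of 14279 genes, 1885 were higher and 1642 lower in GMR control heads, 24.7% of all genes tested (13.2% higher and 11.5% lower). Most of these differences were small, with a median of 0.515 on the log2 scale, and 339 genes were higher and 311 lower by more than 1 on the log2 scale. The libraries of the controls did not overlap in 97.36% of the called genes, against 51.9% of all genes. With each library centred on its own median, 1520 genes were higher and 2084 lower, so that the balance of the directions, 53.4% higher as deposited and 42.2% after centring, depends on the scaling. Yolk protein RNA alone made up 5.75% to 5.99% of the summed linear values in GMR control libraries and 0.0061% to 0.0337% in elav control libraries. Together with low roX RNA and high fat body RNA of female type, described below, this goes against the sex given in the methods for all 17 GMR libraries of the series, in which yolk protein RNA made up 5.75% to 8.58% of the sum, against 0.00511% to 0.0337% in all 18 elav libraries. Whether the sex of the flies differed was not tested, and each group is called here by its driver. Driver, stock, sex-marker RNA and any unrecorded batch differ together between the controls, and their parts in each difference below cannot be told apart. In pooled heads, fewer cells of a type and less RNA per cell cannot be told apart either.

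The RNAs of dosage compensation were low in GMR control heads. roX1 (X, 3857230 to 3862697, build BDGP6) stood at 5.81, 5.89 and 5.73 in GMR control heads, against 11.48, 11.54 and 11.48 in elav control heads, 51.8-fold higher in elav control (log2 fold change -5.69 ± 0.06 SE, adjusted p = 4.03e-27). roX2 (X, 11579065 to 11580432) stood at 0.68, 0.67 and 0.92 in GMR control heads, against 8.56, 8.53 and 8.34 in elav control heads (log2 fold change -7.72 ± 0.17, adjusted p = 1.45e-20). At equal RIN the replicates of each control lay close together, and the gap between the groups was many times their spread. As deposited, roX1 was at 5.32, 5.65 and 5.24 in GMR control heads, against 11.25, 12.31 and 12.25 in elav control heads. roX2 was at 0.05, 0.37 and 0.29, against 8.26, 9.51 and 9.33. The elav control replicates thus spread more before RIN was set equal, and the groups stayed apart. At equal RIN the same split ran through the series: roX1 was 5.43 to 5.89 in all 17 GMR libraries and 11.43 to 11.72 in all 18 elav libraries. Among the protein subunits, msl-2, whose product is limiting for the complex in males, was at 4.94, 4.86 and 4.94 in GMR control heads, against 5.50, 5.55 and 5.48 in elav control heads (log2 fold change -0.60, adjusted p = 1.85e-10). The remaining subunits msl-1, msl-3, mle and mof did not pass both thresholds, with log2 fold changes of 0.05, 0.02, 0.11 and -0.02. The non-coding RNAs and msl-2 thus set the controls apart, and the shared subunits did not do so past both thresholds.

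Regulators of sex determination differed by smaller amounts. Sxl, the switch gene of the pathway, was at 8.47, 8.41 and 8.44 in GMR control heads, against 7.85, 7.87 and 7.78 in elav control heads (log2 fold change 0.61, adjusted p = 1.49e-09). snf, a splicing factor that acts with Sxl, was also higher (log2 fold change 0.33, adjusted p = 3.57e-06). dsx, the transcription factor at the end of the pathway, was lower (log2 fold change -0.35, adjusted p = 3.92e-06), while tra (0.24) and fru (-0.21) did not pass both thresholds; without GMR control replicate 1, tra did (0.30, adjusted p = 0.0123). The table counts whole genes, so that sex-specific splice forms of these genes are not resolved.

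Female-type products of the fat body and the oenocytes were higher in GMR control heads. Yp1 (X, 10053811 to 10055498) stood at 13.52, 13.46 and 13.42 in GMR control heads, against 5.53, 5.46 and 0.95 in elav control heads (log2 fold change 9.49 ± 0.67, adjusted p = 5.07e-11). Yp2, its neighbour on the X chromosome, stood at 14.10, 14.02 and 14.04 in GMR control heads, against 6.18, 6.08 and 1.57 in elav control heads (log2 fold change 9.45 ± 0.66, adjusted p = 4.63e-11). Yp3 stood at 15.08, 15.01 and 15.07 in GMR control heads, against 7.62, 7.44 and 5.70 in elav control heads (log2 fold change 8.13 ± 0.27, adjusted p = 2.68e-17). As deposited, before the levels were set to equal RIN, Yp1 was at 14.61, 13.98 and 14.51 in GMR control heads, against 6.06, 3.76 and -0.76 in elav control heads. On either scale the GMR control libraries were close together, whereas elav control replicates 1 and 2 held more yolk protein RNA than replicate 3, without reaching the GMR control level. fit, a female-enriched secreted protein of the fat body around the brain, stood at 8.45, 8.31 and 8.73 in GMR control heads, against 4.60, 4.51 and 4.41 in elav control heads (log2 fold change 4.0 ± 0.11, adjusted p = 1.64e-18). Fad2, the desaturase that makes the diene pheromones of females, stood at 1.56, 1.65 and 0.17 in GMR control heads, against -4.66, -5.01 and -7.12 in elav control heads (log2 fold change 6.72, adjusted p = 1.17e-08). eloF, the female elongase of the same pathway, was higher as well (log2 fold change 4.06, adjusted p = 9.76e-05). Desat1, a desaturase of both sexes, differed less (log2 fold change 0.41, adjusted p = 1.07e-05).

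Male-enriched head RNAs were lower in GMR control heads. Cyp4d21, a male-biased cytochrome P450, stood at -0.29, -0.80 and -1.14 in GMR control heads, against 7.25, 7.40 and 7.54 in elav control heads (log2 fold change -8.14 ± 0.25, adjusted p = 8.61e-18). sxe2, a lipase-like gene, stood at 6.54, 6.39 and 6.45 in GMR control heads, against 9.10, 9.13 and 9.10 in elav control heads (log2 fold change -2.65, adjusted p = 2.01e-21). Obp99b, an odorant binding protein of the male head fat body, stood at 6.22, 6.23 and 6.51 in GMR control heads, against 8.89, 8.93 and 8.90 in elav control heads (log2 fold change -2.59, adjusted p = 2.66e-14). Its neighbour family member Obp99a went the other way, at 8.20, 8.30 and 8.43 in GMR control heads, against -0.08, -0.03 and -1.99 in elav control heads (log2 fold change 9.01, adjusted p = 1.88e-16). The secreted chemosensory genes CheB93a, CheA86a, CheB38b and CheB93b were also lower, with log2 fold changes from -6.0 to -3.70 and levels of -2.55 or below in every GMR control library. The 8 genes on the sex-biased fat body and pheromone list include Desat1, a desaturase of both sexes. Among the 8, 4 were higher and 4 lower, and none failed the test. Of these, 7 kept their direction in both TREM2/TYROBP pairs, while to did not, as described below.

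**Figure D1:**
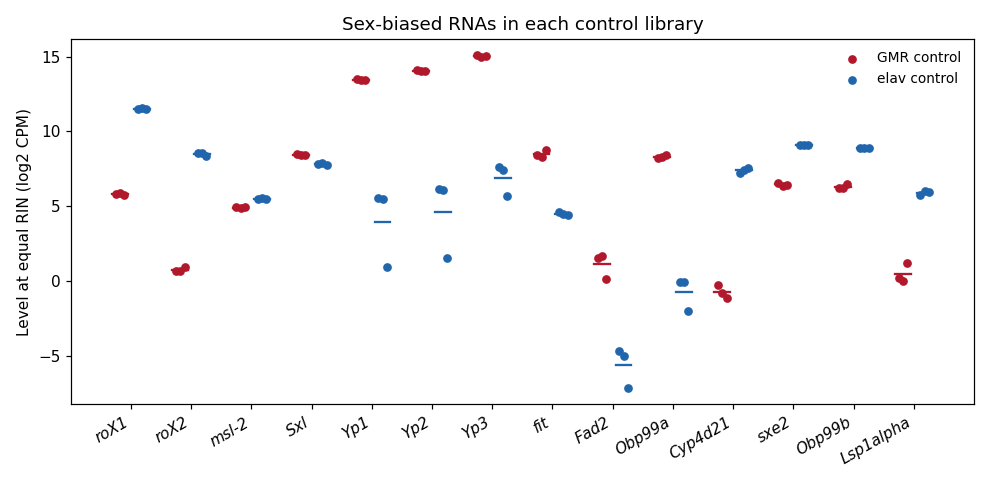
Level at equal RIN (y axis, log2 CPM) in each control library of sex-biased RNAs and of Obp99a and Lsp1alpha. GMR control is in red on the left and elav control in blue on the right of each gene. Points are libraries and bars are means of 3. The RNAs roX1, roX2, Cyp4d21, sxe2, Obp99b and Lsp1alpha sit lower in GMR control, and the yolk proteins, fit, Fad2 and Obp99a sit higher, with no overlap between the groups.

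Germ line and reproductive tract RNA was scarce in both controls. The oocyte yolk receptor yl was at 0.01, -0.95 and -0.19 in GMR control heads, against -3.96, -4.17 and -4.70 in elav control heads, and did not pass the test (log2 fold change 3.89 ± 1.83, adjusted p = 0.0987). The spread in that test is shared with the other genotypes, and across all 17 GMR libraries yl ranged from -3.06 to 6.43. In the 18 libraries with no Aβ42 or tau yl passed (5.09, adjusted p = 0.00282). It also passed in all libraries without RIN (5, adjusted p = 0.0429). In the 6 control libraries it passed with RIN (3.35, adjusted p = 0.0356) and without RIN (5, adjusted p = 0.00526). Of 22 ovary and eggshell genes 3 were higher (13.6%, against 13.2% over all genes) and 0 lower, with a median log2 fold change of 0.50, and the posterior determinants osk and nos did not pass (adjusted p = 0.826 and 0.387). nos passed in the 18 libraries with no Aβ42 or tau (3.70, adjusted p = 0.0258) and in the 6 control libraries without RIN (3.22, adjusted p = 0.00933). Of 12 testis and accessory gland genes 0 were higher and 2 lower (16.7%, against 11.5% over all genes). On the Y chromosome, the sperm dynein genes kl-3 and kl-5 were lower in GMR control heads (log2 fold change -2.32 and -1.93). Both lay below -1 in every control library. Mean levels, GMR control first, were -4.50 against -2.17 for kl-3 and -5.59 against -3.66 for kl-5. Both lost the call in the 6 control libraries with RIN (adjusted p = 0.152 and 0.215) and with 1 added before log2 (-0.24 and -0.11). In the 18 libraries with no Aβ42 or tau kl-5 lost it too (adjusted p = 0.0639). kl-2 and fdy were not called, although kl-2 passed without GMR control replicate 3 (2.26) or elav control replicate 1 (2.45). In addition, 5 copies of the Su(Ste) repeat listed on the Y chromosome were higher in GMR control heads. These copies are nearly identical to one another and to repeats elsewhere, so that their reads cannot be assigned with certainty.

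X-linked genes were called more often than autosomal genes. Of 2245 X-linked genes, 443 (19.7%) were higher and 232 (10.3%) lower in GMR control heads, with a median log2 fold change of 0.072. Of 11870 genes on the large autosomes, 1426 (12%) were higher and 1396 (11.8%) lower, with a median of -0.007. The 5 chromosome arms other than X ranged from 15.7% called on chromosome 4 to 26.2% on 2R, against 30.1% on the X. Within each library, the median X-linked level exceeded the median autosomal level by 0.723, 0.713 and 0.724 in GMR control heads, against 0.647, 0.618 and 0.632 in elav control heads, a difference of 0.088. The groups did not overlap, and an exact two-sided permutation test gave p = 0.1, the smallest that 3 against 3 libraries allow. Over the controls and both TREM2/TYROBP pairs together, with libraries permuted within each pair, the mean difference was 0.071 (exact p = 5e-04). In the TREM2R47H/TYROBP pair 1 GMR library, at 0.632, lay among the elav libraries.

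**Figure D2:**
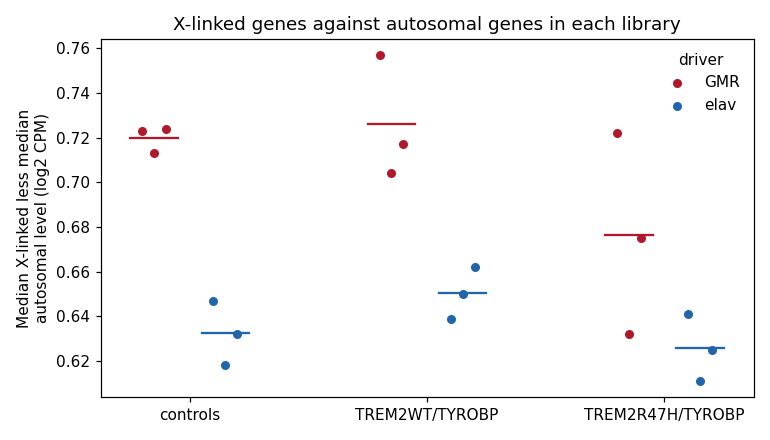
Median X-linked level less median autosomal level (y axis, log2 CPM, as deposited) in each library of 3 pairs of genotypes, with GMR in red on the left and elav in blue on the right; points are libraries and bars are means of 3. The control libraries lie at 0.713 to 0.724 with GMR and at 0.618 to 0.647 with elav; the y axis does not start at 0.

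In the eye, where GMR-GAL4 is active, rhodopsin RNA differed by photoreceptor subtype. ninaE, the rhodopsin of the outer photoreceptors R1 to R6 and one of the most abundant RNAs of the head, was at 14.52, 14.47 and 14.50 in GMR control heads, against 14.59, 14.57 and 14.58 in elav control heads, and was not called (log2 fold change -0.08 ± 0.04, adjusted p = 0.134). Under quantile normalization, which moves the most abundant RNAs, ninaE gave -1.16 and passed (adjusted p = 4.47e-05). The inner photoreceptors R7 and R8 come in a pale type, with Rh3 and Rh5, and a yellow type, with Rh4 and Rh6. Rh5 stood at 9.24, 9.22 and 9.32 in GMR control heads, against 7.96, 7.89 and 7.87 in elav control heads (log2 fold change 1.36 ± 0.05, adjusted p = 3.21e-16). Rh3 was at 9.22, 9.22 and 9.30 in GMR control heads, against 8.97, 8.96 and 8.91 in elav control heads (log2 fold change 0.30, adjusted p = 1.89e-06). Both pale-type rhodopsins were thus higher in GMR control heads. Rh6 was at 8.69, 8.72 and 8.70 in GMR control heads, against 9.17, 9.08 and 9.11 in elav control heads (log2 fold change -0.42, adjusted p = 1.18e-06). Rh4 was at 9.46 in each of the GMR control libraries, against 9.75, 9.75 and 9.69 in elav control heads (log2 fold change -0.27, adjusted p = 1.03e-04). Both yellow-type rhodopsins were lower, although Rh4 and Rh3 lay close to the fold threshold. Rh4 lost the call without elav control replicate 1 (-0.25) or 2 (-0.26), and Rh3 after quantile normalization (0.21) or centring on library medians (0.25). Rh2, the rhodopsin of the ocelli, was at 7.15, 7.13 and 7.19 in GMR control heads, against 7.95, 8.0 and 7.91 in elav control heads (log2 fold change -0.80, adjusted p = 4.74e-14), and Rh7 did not differ detectably (0.00 ± 0.04). In the TREM2WT/TYROBP and TREM2R47H/TYROBP pairs Rh5 was again higher (1.27 and 1.17) and Rh6, Rh4 and Rh2 lower, while Rh3 was not called (0.22 and 0.16).

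Phototransduction genes were more often higher than lower. Of 32 genes, 10 were higher (31.2%, against 13.2% over all genes) and 1 lower (3.12%, against 11.5%). The median log2 fold change was 0.17 against 0.00 over all genes, and 9 of the 10 were higher in all 3 pairs. The higher genes included both light-activated channels, trp and trpl (0.47 each), the eye protein kinase C inaC (0.52), the myosin ninaC (0.47), the lipid transfer protein rdgB (0.51), stops (0.74) and ninaD, a scavenger receptor for carotenoids (0.70). The gene that was lower was Gprk2, a G protein-coupled receptor kinase (-0.30). The excess of higher genes depended on the scaling: under quantile normalization 5 were higher and 4 lower, with a median of 0.08, and trp (0.23), trpl (0.18), inaC (0.14) and ninaC (0.23) lost the call.

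Eye pigment transporters diverged. bw, the partner of White in the uptake of red pigment precursors, was at 6.98, 7.01 and 7.10 in GMR control heads, against 5.80, 5.77 and 5.77 in elav control heads (log2 fold change 1.25, adjusted p = 3.56e-13). st, the partner of White in the uptake of brown pigment precursors, was at 3.28, 3.35 and 3.49 in GMR control heads, against 5.24, 5.15 and 5.16 in elav control heads (log2 fold change -1.81, adjusted p = 3.95e-17). w itself was at 6.81, 6.78 and 6.78 in GMR control heads, against 7.20, 7.20 and 7.19 in elav control heads (log2 fold change -0.41, adjusted p = 5.68e-09). The partners of White thus lay on opposite sides of 0, each outside the range of the other control. pr, an enzyme of pteridine synthesis, and cm, an AP-3 subunit of pigment granule traffic, were higher (0.57 and 0.32), and the other 17 of 22 pigment genes were not called, so that 22.7% of the list was called, against 24.7% of all genes. All 5 calls recurred in both TREM2/TYROBP pairs. Among 19 retinal transcription factors 1 was higher and 3 lower (21.1% called, also below the share over all genes): lz, a Runx factor of eye cell fate, was higher (0.53), and pros, salr and ss, which act in R7 and R8 or in colour subtype choice, were lower (-0.53, -0.30 and -0.70). gl, whose binding sites make up the GMR element, was not called (0.20).

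**Figure D3:**
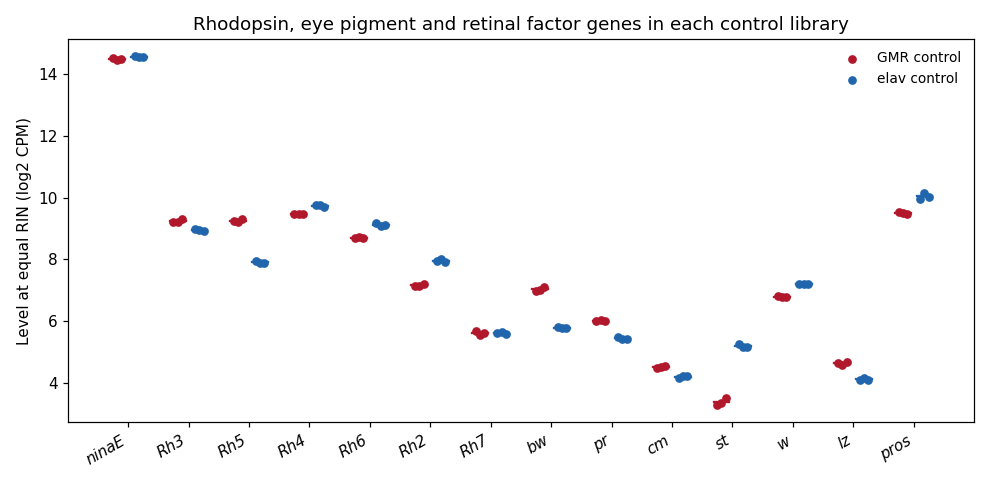
Level at equal RIN (y axis, log2 CPM) of rhodopsin, eye pigment and retinal transcription factor genes in each control library, with GMR control in red on the left and elav control in blue on the right of each gene; points are libraries and bars are means of 3. Rh5, bw and lz sit higher and Rh2, st and pros lower in GMR control, while ninaE and Rh7 lie level.

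A minority of genes used across neurons were lower in GMR control heads. Of 18 pan-neuronal genes 0 were higher, 6 lower (33.3%) and 12 not called, with a median log2 fold change of -0.23, against 11.5% lower and a median of 0.00 over all genes. The active zone scaffold brp was at 8.16, 8.12 and 8.06 in GMR control heads, against 8.49, 8.64 and 8.63 in elav control heads (log2 fold change -0.48, adjusted p = 3.39e-06). The sodium channel para (-0.43), the adhesion molecule CadN (-0.37), the acetylcholine transporter VAChT (-0.34), Appl (-0.28) and the calcium channel cac (-0.28) were also lower. These 6 genes are long, at 6383 to 16309 bases. In the longest of 5 length classes of all genes (from 3382 bases), 17% were lower, with a median log2 fold change of -0.074. The part of length in the neuronal differences was not tested. elav, at whose locus the elav driver is inserted, was at 7.98, 7.94 and 7.96 in GMR control heads, against 8.21, 8.21 and 8.14 in elav control heads, a difference of -0.23 that passed the p threshold (adjusted p = 2.31e-05) but not the fold threshold. Appl lost the call without replicate 2 of either control (-0.26 each), and cac without GMR control replicate 3 (-0.25) or elav control replicate 2 (-0.26). CadN alone among the 6 was called lower in all 3 pairs. Centred on library medians, 10 of the 18 were lower.

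Glial genes were called about as often as all genes. Of 22, 5 were higher and 1 lower (27.3% called, against 24.7% over all genes), each in all 3 pairs, and the median log2 fold change was 0.08. Higher were Mdr65 and moody, a transporter and a receptor of the blood-brain barrier glia (0.52 and 0.58), bnb (0.65), the cortex glia exchanger zyd (0.31) and the lipocalin GLaz (0.28). GLaz lost the call without elav control replicate 3 (0.26), and GLaz and zyd after centring on library medians (0.23 and 0.25). alrm, a marker of astrocyte-like glia, was at 6.65, 6.60 and 6.67 in GMR control heads, against 7.25, 7.30 and 7.22 in elav control heads (log2 fold change -0.61, adjusted p = 5.48e-12). repo, the glial identity gene whose enhancer drives LexA in both controls, was not called (-0.09).

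Ribosomal protein RNA was the most uniform group. Of 90 genes of cytosolic ribosomal proteins and their duplicates, 81 were higher and 0 lower in GMR control heads, against 13.2% higher over all genes, and the median log2 fold change was 0.75. The same 81 were higher in both TREM2/TYROBP pairs. The called changes spanned only 0.28 to 1.18. RpL41 was at 10.61, 10.66 and 10.69 in GMR control heads, against 9.49, 9.54 and 9.40 in elav control heads (log2 fold change 1.18, adjusted p = 1.83e-11). RpLP1 and RpL39 were each higher by 1.03. Summed over the list, ribosomal protein RNA was 83600, 84500 and 88100 CPM in GMR control heads, against 50200, 50900 and 49200 CPM in elav control heads. These sums are not shares: at equal RIN all genes together came to 1.07, 1.06 and 1.07 of the CPM total in GMR control libraries. In elav control libraries they came to 0.935, 0.94 and 0.935, so that the gap in shares is smaller. Under quantile normalization 80 ribosomal protein genes were higher, with a list median of 0.51. Centred on library medians, 79 were higher, with a list median of 0.70. Among the 9 that were not called, 8 had a mean log2 level under 5 over all libraries, several of them duplicates used in the germ line, and the other was RpL22 (-0.10). Over all genes, split by length into 5 classes of equal size, the median log2 fold change was -0.015, 0.058, 0.052, 0.017 and -0.074 from the shortest to the longest class. The share of lower genes was 10.9%, 9.28%, 9.77%, 10.6% and 17% in the same order. The share of higher genes was 12%, 16.6%, 16.1%, 13.5% and 7.74%. Past the shortest class, the median and the share of higher genes fell with length and the share of lower genes rose. The step was largest at the longest class, and the shortest class lay outside this trend. The ribosomal protein genes had a median length of 888 bases, and the part of length in their change was not tested.

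Muscle genes were higher where they differed. Of 21 striated muscle genes, 10 were higher (47.6%, against 13.2% over all genes) and 0 lower, all 10 in all 3 pairs. The median log2 fold change was 0.39. Myosin heavy chain, Mhc, was at 11.12, 11.19 and 11.03 in GMR control heads, against 10.38, 10.33 and 10.53 in elav control heads (log2 fold change 0.70, adjusted p = 4.24e-09). Act57B (0.76), TpnC25D (0.97), Mlc2 (0.67) and Tm2 (0.58) behaved alike. The flight muscle form TpnC4, low in most libraries of the series, was at -2.62, 4.49 and -2.45 in GMR control heads, against -3.46, -2.82 and 3.10 in elav control heads. GMR control replicate 2 and elav control replicate 3 were therefore high in a thoracic RNA, and the same libraries were high in midgut proteases: Jon65Aiii was at -3.18, 5.43 and -2.24 in GMR control heads, against -3.48, -1.71 and 4.60 in elav control heads. Without those 2 libraries 10 muscle genes were higher and 2 lower, 80 ribosomal protein genes were higher, and 1743 genes were higher and 1362 lower in all.

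**Figure D4:**
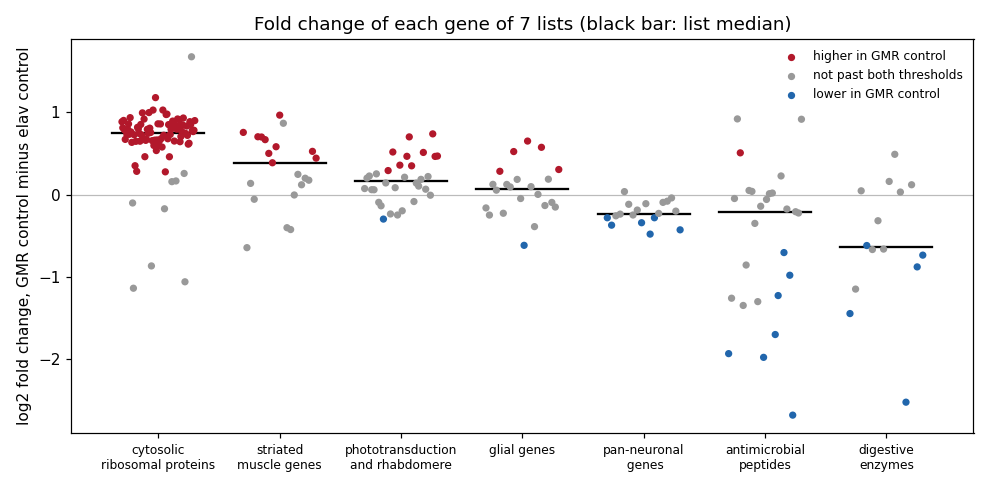
Log2 fold change of each gene, GMR control minus elav control (y axis), for 7 gene lists; red points were higher and blue points lower in GMR control past both thresholds, grey points were not called, and black bars are list medians. Ribosomal protein genes lie in a band around 0.75, pan-neuronal genes lie near -0.23, and antimicrobial peptides and digestive enzymes extend to -2.68 and -2.52.

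Secreted products of the fat body did not move as 1 group. Of 14 fat body and haemolymph genes 3 were higher (21.4%, against 13.2% over all genes) and 4 lower (28.6%, against 11.5%). Rfabg, the apolipophorin of the haemolymph, was at 15.10, 15.01 and 15.07 in GMR control heads, against 14.23, 14.28 and 14.20 in elav control heads (log2 fold change 0.82, adjusted p = 3.20e-09), and Apoltp, a lipid transfer particle, was higher by 0.77. Under quantile normalization Rfabg gave -0.04. The X-linked storage protein gene Lsp1alpha was at 0.18, -0.02 and 1.24 in GMR control heads, against 5.76, 6.05 and 5.93 in elav control heads (log2 fold change -5.45, adjusted p = 2.76e-13). Transferrin, Tsf1, was at 11.50, 11.33 and 11.42 in GMR control heads, against 12.28, 12.31 and 12.35 in elav control heads (log2 fold change -0.90, adjusted p = 2.21e-09).

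Antimicrobial peptide genes were more often lower than higher. Of 26, 7 were lower (26.9%, against 11.5% over all genes), 6 of them in all 3 pairs, and 1 was higher, CG16712 (0.51), with a median log2 fold change of -0.21. Drsl4 was at 4.62, 4.98 and 4.59 in GMR control heads, against 6.47, 6.32 and 6.49 in elav control heads (log2 fold change -1.70, adjusted p = 1.91e-10). IM2, an induced haemolymph peptide, was at 7.36, 7.37 and 7.48 in GMR control heads, against 8.37, 8.41 and 8.37 in elav control heads (log2 fold change -0.98, adjusted p = 7.39e-08). AttA, an attacin of the Imd response, was at 2.64, 2.12 and 4.75 in GMR control heads, against 4.94, 5.55 and 4.80 in elav control heads (log2 fold change -1.93, adjusted p = 0.00376). GMR control replicate 3 was thus close to the elav level for AttA, and without it 11 antimicrobial peptide genes were lower. Of 12 peptidoglycan recognition proteins, PGRP-SC2 (-2.14), PGRP-SD (-0.66) and PGRP-LB (-0.42) were lower, PGRP-LA (0.32) was higher and 8 were not called, with a median of 0.11. The shares were 25% lower and 8.33% higher, against 11.5% and 13.2% over all genes. PGRP-SC2 was not called in either TREM2/TYROBP pair (-0.63 and -0.61). Of 7 Turandot stress genes, TotX was lower (-2.24) and the other 6 were not called (14.3% lower, close to the share over all genes).

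Genes of digestion, detoxification and chemosensation differed in both directions. Over all genes 13.2% were higher and 11.5% lower. Of 14 digestive enzymes 0 were higher and 5 lower (35.7%), among them the maltases Mal-B1 (-0.88) and Mal-B2 (-0.73), which replicated with little spread. Of 83 cytochrome P450 genes 16 were higher (19.3%) and 17 lower (20.5%), and 11 and 15 of them kept the call in all 3 pairs. Cyp313a1 was at 7.14, 7.08 and 7.18 in GMR control heads, against 9.13, 9.23 and 9.20 in elav control heads (log2 fold change -2.05, adjusted p = 1.19e-15). Cyp4e3 was at 6.25, 6.74 and 6.63 in GMR control heads, against 4.06, 4.24 and 4.17 in elav control heads (log2 fold change 2.38, adjusted p = 8.27e-13). Cyp18a1, the enzyme that inactivates ecdysone, was higher by 1.41. Cyp12d1-d was at -6.30, -6.77 and -5.89 in GMR control heads, against 1.31, 1.62 and 1.19 in elav control heads, but its near-identical tandem copy Cyp12d1-p went the other way (0.73), and reads may be divided between the copies. Of 43 odorant binding proteins 10 were higher (23.3%) and 11 lower (25.6%), and 10 and 4 of them kept the call in all 3 pairs. The antennal Obp83a and Obp83b were lower (-2.33 and -3.13), which was not firm. Obp83b was at 2.34, 2.57 and -4.20 in GMR control heads, against 2.41, 3.50 and 4.18 in elav control heads. Without GMR control replicate 3 its log2 fold change was -0.93 (adjusted p = 0.24). Obp83b also lost the call without elav control replicate 2 (-3.06, adjusted p = 0.056) or 3 (-2.74, adjusted p = 0.0851). The hygrosensory receptor Ir68a, in contrast, was at 4.66, 4.70 and 4.66 in GMR control heads, against 2.27, 2.30 and 2.23 in elav control heads (log2 fold change 2.41, adjusted p = 1.57e-16).

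The largest differences included genes outside these lists. Osi6 (3R, 6234708 to 6237181), of the Osiris family of cuticle-forming cells, was at 5.02, 4.80 and 4.87 in GMR control heads, against -2.18, -3.36 and -3.89 in elav control heads (log2 fold change 8.04, adjusted p = 1.42e-11). rost, which acts in myoblast fusion, was at 6.79, 6.75 and 6.86 in GMR control heads, against 2.65, 2.75 and 2.57 in elav control heads (log2 fold change 4.14, adjusted p = 2.89e-19). Osi6 ranged from 4.14 to 5.57 over all GMR libraries of the series and from -6.29 to -2.18 over all elav libraries, and rost from 6.67 to 7.17 and from 1.67 to 2.75, so that neither overlapped. CR40469, a non-coding RNA near the tip of the X chromosome, was 70.9-fold higher and the X-linked CG17777 66.7-fold higher in GMR control heads. The ecdysone synthesis gene sad (4.29) and the sodium channel subunits ppk30 (4.65) and ppk20 (4.23) were also higher. ppk20, ppk30 and Obp99a lie close together on 3R, from 29666814 to 29672334. The 1 Mb window that holds them had 7 called genes beyond 2 on the log2 scale, the most of any window, with 21% of its genes called. On the other side, fs(1)Yb, a piRNA pathway gene of ovarian somatic cells, was at -3.45, -3.58 and -2.39 in GMR control heads, against 1.16, 1.51 and 0.61 in elav control heads (log2 fold change -4.23, adjusted p = 2.41e-11). APC7, a subunit of the anaphase-promoting complex, was lower by 3.66, the cuticle protein Cpr49Ag by 2.84 and the glycosyltransferase Ugt37b1 by 2.84. Called genes were spread along the arms: in each of the 116 windows of 1 Mb with at least 50 genes, 14.8% to 42.7% of genes were called, and the 6 windows with the highest share all lay on the X chromosome.

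Many of the genes called between the controls were called in the same direction where the driver differed in other genotypes, and how many depended on the processing. Sex-marker RNA differed in the further pairs as well: roX1 gave -5.93 with TREM2WT/TYROBP and -5.94 with TREM2R47H/TYROBP. The parts of driver, stock and sex-marker RNA therefore cannot be told apart in these pairs either. Between the TREM2WT/TYROBP heads 2142 genes were higher and 1397 lower with GMR than with elav (24.8%, 9.78% of all genes lower), and between the TREM2R47H/TYROBP heads 2250 were higher and 1723 lower (27.8%, 15.8% higher and 12.1% lower). Of the 1885 genes higher in GMR control heads, 1292 (68.54%) were called higher in both further pairs, and of the 1642 lower genes 736 (44.82%) were called lower in both. Of the higher genes, 9 were called lower in the TREM2WT/TYROBP pair and 9 in the TREM2R47H/TYROBP pair, and of the lower genes 5 and 8 were called higher there. Without RIN in the model, 1238 genes were higher and 804 lower in the TREM2R47H/TYROBP pair, and with each library centred on its median 2529 and 2682 were lower in the TREM2WT/TYROBP and TREM2R47H/TYROBP pairs, against 1397 and 1723 as reported. The shares called in all 3 pairs were then 43.1% of the higher and 25.5% of the lower genes without RIN, and 61.4% and 60.4% after centring, settings tried for these shares after seeing the data. The pairs share no library, but share the slope on RIN and the variance estimate of the fit. Across the whole series, 1143 genes were higher in each of the 17 GMR libraries than in any of the 18 elav libraries, and 575 were lower.

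The difference between drivers itself differed from that of the controls for 260 genes (1.82%) with TREM2WT/TYROBP, 147 upwards (1.03%) and 113 downwards (0.791%). With TREM2R47H/TYROBP it differed for 67 genes (0.469%), 30 upwards (0.210%) and 37 downwards (0.259%). These counts were not stable: without RIN they were 139 with TREM2WT/TYROBP and 186 with TREM2R47H/TYROBP, which turns their order round, and in the 18 libraries with no Aβ42 or tau they were 131 and 23. The body colour gene y was at 1.25, 1.02 and 1.26 in GMR control heads, against -1.40, -0.99 and -1.47 in elav control heads (log2 fold change 2.46, adjusted p = 1.29e-15), and gave 0.09 and 0.24 in the TREM2WT/TYROBP and TREM2R47H/TYROBP pairs. Its difference from the controls was -2.37 and -2.23 (adjusted p = 7.69e-11 and 1.21e-08). Hsp70Bb, a heat shock protein gene with near-identical copies, was at 2.90, 2.88 and 2.85 in GMR control heads, against 0.49, 0.61 and 0.46 in elav control heads (log2 fold change 2.36, adjusted p = 1.12e-17), and was lower in the further pairs (-0.87 and -0.44). to, a fat body and antennal gene of feeding and male courtship, was at 5.81, 5.22 and 5.98 in GMR control heads, against 6.80, 7.15 and 6.85 in elav control heads (log2 fold change -1.26, adjusted p = 9.90e-06), and was higher in both further pairs (1.60 and 1.49). Cyp304a1 was higher in GMR control heads (2.85) and in the TREM2R47H/TYROBP pair (2.47), and gave -0.92 in the TREM2WT/TYROBP pair. For these genes the control difference did not stand for the difference between drivers in general.

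**Figure D5:**
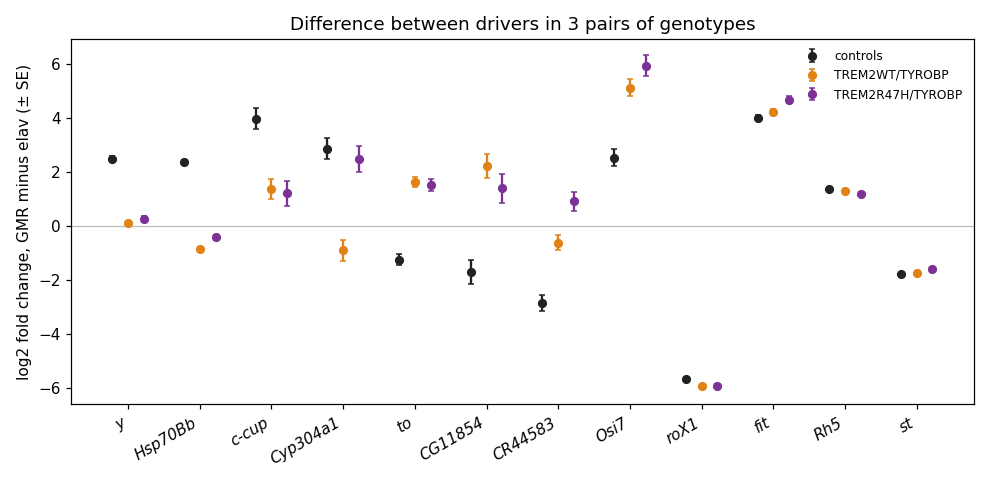
Log2 fold change, GMR minus elav, with its standard error (y axis) for 12 genes in the controls (black), with TREM2WT/TYROBP (orange) and with TREM2R47H/TYROBP (purple). roX1, fit, Rh5 and st give nearly the same value in the 3 pairs, whereas y, Hsp70Bb and to do not, and to lies below 0 in the controls and above 0 in the others.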

How the data were processed

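Total RNA from pooled heads was depleted of ribosomal RNA and sequenced single-end. The authors aligned reads to BDGP6 with STAR 2.5.0b, counted them per Ensembl gene with featureCounts, dropped genes that reached 5 reads in no library, and deposited log2 CPM values after normalization and adjustment for RIN. No read counts were used here, so that depth is unknown and no counting interval can be given.

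A linear model with 12 genotypes and RIN was fitted over all 35 libraries with limma 3.58.1 in R 4.3.3 (22 residual degrees of freedom), and 5 contrasts were taken: GMR minus elav in controls, with TREM2WT/TYROBP and with TREM2R47H/TYROBP, and the last 2 less the first. Calls required a Benjamini-Hochberg adjusted p under 0.05 together with more than a 1.2-fold change (differences between contrasts by adjusted p alone). Levels were set to equal RIN with the fitted slope. Named genes were list members, the 15 genes with the largest change each way (mean log2 level of at least 0 in the higher control, no overlap of libraries), the genes with the largest recurring change, and the 5 with the largest difference between pairs each way. The members and lists were chosen with earlier results of these data known. X-linked and autosomal medians were compared by exact permutation tests. The model was tested on simulated data. Alternatives covered RIN, the libraries fitted, filters, an added constant, scaling, a replicate block, eBayes settings, thresholds and leaving out libraries. Gene types came from Ensembl annotation, matched for 14019 of 14279 identifiers. Sequences were not used here.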

Additional observations from a re-analysis of the deposited data

Results flagged for a closer look

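For several genes the difference between drivers was not the same in the controls as in the TREM2/TYROBP genotypes, by limma's test of the difference itself. Counted over all genes, 260 differed with TREM2WT/TYROBP and 67 with TREM2R47H/TYROBP. With TREM2WT/TYROBP, the difference between drivers less that in controls was 2.86 for to, 3.93 for CG11854, 2.66 for CG12507, 2.59 for Osi7, 2.39 for alphaTub85E, 2.23 for CR44583, 0.71 for Drsl4, 0.49 for bw, 0.34 for sxe2 and 0.23 for mle on the log2 scale. It was -3.77 for Cyp304a1, -3.23 for Hsp70Bb, -2.62 for c-cup and -2.37 for y. With TREM2R47H/TYROBP, it was 3.77 for CR44583, 3.39 for Osi7 and 2.76 for to, and it was -2.80 for Hsp70Bb, -2.77 for c-cup, -2.23 for y and -1.22 for Cyp4e3.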

How the results depend on the processing

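The count of genes called between the controls was within 1.5 times that reported without RIN, in the 18 libraries with no Aβ42 or tau, with a filter on low levels, with 1 added before log2, under each rescaling and with the trended robust eBayes. With the 6 control libraries alone and RIN, 886 genes were higher and 449 lower, and with the same 6 libraries without RIN 2104 and 1788. With a log2 fold change above 1 instead of 1.2-fold, 339 were higher and 311 lower, and with no fold threshold 2924 and 2591. Leaving out single libraries of the controls gave 1721 to 1866 genes higher and 1398 to 1579 lower. For the TREM2WT/TYROBP pair, 481 were higher and 294 lower above a log2 fold change of 1, 3229 and 2546 with no fold threshold, and 2529 were lower after centring on the library median and 2188 after centring on the median autosomal gene. For the TREM2R47H/TYROBP pair, 452 were higher and 350 lower above a log2 fold change of 1, 1238 and 804 without RIN, and 2682 and 2608 were lower after the same centrings. The driver difference with TREM2WT/TYROBP less that in controls passed for 139 genes without RIN, 131 in the 18 libraries and 159 to 233 with single libraries left out. That with TREM2R47H/TYROBP passed for 186 genes without RIN, 23 in the 18 libraries and 36 to 107 with single libraries left out, the lowest without elav control replicate 1 and the highest without GMR TREM2R47H/TYROBP replicate 1. The cause of these shifts was not tested.

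The replicate block gave 1881 genes higher and 1634 lower between the controls and changed no call among the 128 genes followed through the alternatives. The replicate numbers are not said to pair the samples. The deviations of same-numbered control libraries from their group means correlated at 0.131, -0.201 and -0.409. GMR control replicate 2 correlated best with elav control replicate 3 (0.545), and both were high in thoracic and midgut RNA. With so few libraries, these correlations cannot decide whether the numbers pair samples. The X-linked excess was 0.081 at equal RIN, 0.084 for genes with a mean log2 level of at least 0, and 0.080 to 0.095 with single libraries left out. Of these 128 genes, Rfabg reversed under quantile normalization (-0.04), and 41 of 108 called genes kept direction and call in every setting, the log2 threshold of 1 and the fit of 6 libraries included. Without depth, absence of a low RNA cannot be shown.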
